A study of Mus musculus with 5 samples.

Results

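Expression of 9 genes of the primitive and definitive endoderm was followed by RNA-seq across mouse embryonic fibroblasts, induced pluripotent stem cells and embryonic stem cells in which the glycine decarboxylase gene Gldc was knocked down. The members were taken by gene symbol, Gata4, Gata6, Sox17, Sox7, Foxa2, Foxa1, Dab2, Pdgfra and Afp, and all 9 were found among the 24421 genes of each of 2 expression tables. The rule for taking these rows names symbols alone, but the symbols were picked with earlier results of these data known. Levels are given as FPKM, the fragments per kilobase of transcript scaled to the depth of the library, which are scaled for gene length and so can be set side by side for different genes.

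There were 5 libraries, each the only one of its group. The first table held MEFs, which were prepared from embryos of CF-1 mice and grown in serum, iPSCs, and V6.5 cells without an shRNA. V6.5 is a line of mouse embryonic stem cells (mESCs). The second held V6.5 cells that stably expressed a non-targeting control shRNA from the pLKO vector (NTC) or an shRNA against Gldc from the same vector (shGldc). The labels give the mESCs and iPSCs a feeder-independent culture on gelatin with serum replacement and leukaemia inhibitory factor. The methods also describe growth on feeder cells, without saying which cultures were sequenced. All mESC libraries came from this 1 line, the shGldc cells carried 1 shRNA, and the iPSC line came from a cell repository, with its donor cells and reprogramming not given in the sources used here. No replicate spread could be measured, so no p-value is given, and a value describes these libraries and not the condition.

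In the mouse blastocyst, the inner cell mass divides into epiblast, which keeps Nanog, and primitive endoderm, which takes on GATA6 under FGF4 signalling from its neighbours. GATA6 and GATA4, zinc finger transcription factors that bind GATA sequences, and SOX17 and SOX7, related HMG box factors, act in this lineage, and Gata6, Gata4 or Sox17 expressed by force can turn mESCs into extraembryonic endoderm. PDGFRA is a receptor tyrosine kinase and an early surface marker of primitive endoderm, and it also marks mesenchyme. DAB2 is a clathrin adaptor of the endoderm that is also found in fibroblasts and macrophages. FOXA2 and FOXA1 are forkhead pioneer factors of definitive endoderm and its organs, and AFP is a serum protein made by visceral endoderm and foetal liver. Pluripotent cultures often hold a few cells that carry primitive endoderm genes.

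Promoter sequence of 5 of the 9 members was matched by symbol in RefSeq windows of GRCm38.p6 that ran from 250 bases before to 50 bases after a gene start. Gata4, Gata6, Sox17 and Sox7 were not among them. Both strands were searched for GATA letters (either AGATAA, or else AGATAG, or else TGATAA, or else TGATAG), forkhead letters (either TGTTTAC or else TGTTTGC) and SOX letters (either ACAATG or else ACAAAG), which are held by 29.8%, 8.48% and 28.6% of the 32851 promoter windows. The 250 bases before the start are shown for the 3 windows with such letters of members that were higher in shGldc than in NTC, with the letters in capitals, because GATA, SOX and forkhead factors are themselves among the members.
Dab2, chr15:6299539-6299788, plus strand: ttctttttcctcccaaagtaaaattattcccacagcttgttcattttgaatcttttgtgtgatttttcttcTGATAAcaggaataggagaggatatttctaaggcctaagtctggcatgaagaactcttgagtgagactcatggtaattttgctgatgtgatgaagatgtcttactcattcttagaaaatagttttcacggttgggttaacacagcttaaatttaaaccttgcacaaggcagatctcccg
Foxa1, chr12:57546112-57546361, minus strand: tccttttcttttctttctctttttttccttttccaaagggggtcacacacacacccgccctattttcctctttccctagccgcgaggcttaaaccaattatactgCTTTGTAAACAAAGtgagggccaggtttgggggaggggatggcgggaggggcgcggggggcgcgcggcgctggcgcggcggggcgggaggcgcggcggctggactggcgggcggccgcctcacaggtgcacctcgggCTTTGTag
Foxa2, start 3, chr2:148045465-148045714, minus strand: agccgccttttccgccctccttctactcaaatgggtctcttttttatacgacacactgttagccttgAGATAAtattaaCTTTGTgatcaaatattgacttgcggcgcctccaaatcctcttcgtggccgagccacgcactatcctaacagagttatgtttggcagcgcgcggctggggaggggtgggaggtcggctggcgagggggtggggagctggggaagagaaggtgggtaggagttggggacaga
The Dab2 window held GATA letters at -179 and, after the start, at 14. In the Foxa1 window the capitals at -145 to the left of the centre are forkhead letters at -141 that overlap SOX letters on either side at -145 and -137, and SOX letters also stood at -8 and 10. Start 3 of Foxa2, inside the gene, had GATA letters at -183 and SOX letters at -171 and 29. The window of Afp had forkhead letters at -55 and SOX letters at -144. The Pdgfra window, the second Dab2 window and the other two Foxa2 windows had none of these letters. These matches describe the letters and are not evidence of binding.

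The step between low FPKM values gave an estimated 22200000 to 28900000 fragments per library, and for NTC and shGldc the depth is uncertain by a factor of 2. Gldc, the targeted gene, was at 74.7 FPKM in NTC and 2.07 FPKM in shGldc, 2.77% of the control level. The 9 pluripotency markers summed to 25.4 FPKM in MEFs and to between 3790 and 7066 FPKM in the other libraries. The untreated V6.5 library also carried fibroblast marker RNA. Of 12 fibroblast markers, 10 reached 1 FPKM in it against 4 in each of the iPSC, NTC and shGldc libraries, and their sum was 59.4 FPKM in V6.5, 26.0 in iPSCs, 14.4 in NTC, 9.50 in shGldc and 7449 in MEFs. Decorin (Dcn) was at 4.25% of its MEF level in V6.5 and at 0 in iPSCs, NTC and shGldc. Where member results rest on untreated V6.5 cells, counts, medians and ratios that shifted by over 0.594 log2 units are therefore also given with NTC. This replacement crosses separately made tables. List counts over V6.5 were not repeated with NTC.

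The first comparison asked how these genes stood after Gldc knockdown, and 8 of the 9 were higher in shGldc than in NTC. Gata6 was the most raised, at 8.22 FPKM against 0.462, and Gata4 reached the second highest level, 7.84 FPKM against 2.38. All 8 exceeded 2-fold, and the remaining member, Afp, was listed at 0 in both. Without any filter on level, 8.17% of all 24421 genes were at least 2-fold higher in shGldc. Most members were low. Among the 6616 genes whose mean of both libraries lay between 0.172 FPKM, the mean of Foxa2, and 5.11 FPKM, the mean of Gata4, a range chosen after the values were seen, 18.8% were at least 2-fold higher. In bulk RNA, more cells that carry these genes and more of their RNA per cell cannot be told apart.

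**Figure D1:**
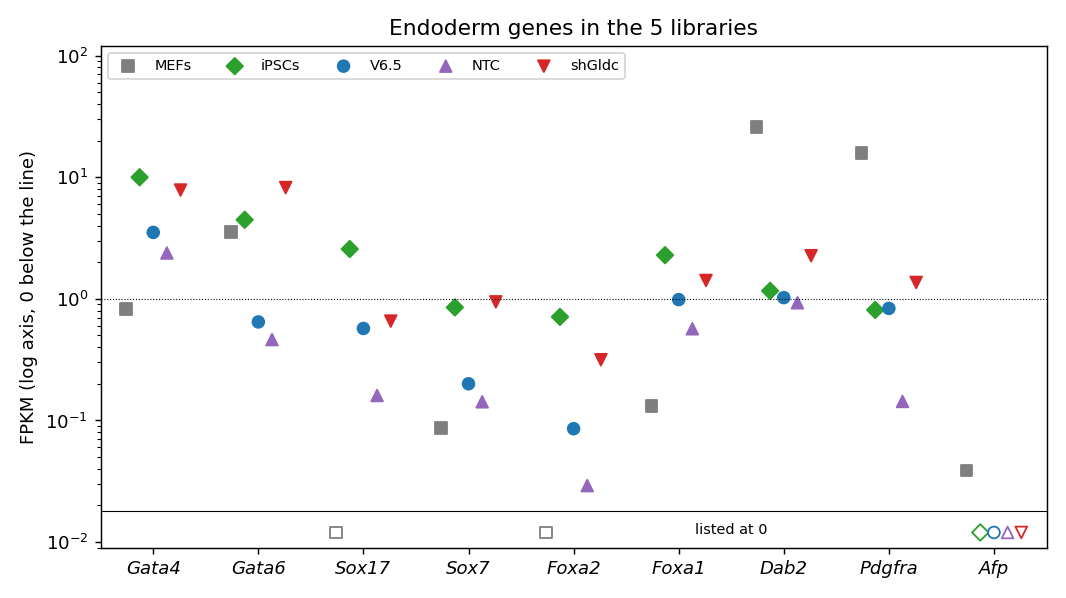
FPKM (log axis) of the 9 genes in MEFs, iPSCs, untreated V6.5 cells, NTC and shGldc, 1 library each. Open symbols under the solid line are values listed at 0 and the dotted line marks 1 FPKM. For 8 genes the shGldc symbol is above the NTC symbol, and Dab2 and Pdgfra stand highest in MEFs, at 25.9 and 15.8 FPKM.

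With the filter of at least 1 FPKM in either library, 5 members remained, Gata4, Gata6, Foxa1, Dab2 and Pdgfra, and all 5 were at least 2-fold higher in shGldc with a median log2 ratio of 1.68. Across the 11969 genes that passed, 8.97% were higher and 7.68% lower by 2-fold or more, and the median was 0.04. Gata4 alone reached 1 FPKM in NTC. The other 4 passed through shGldc, where they were high, so their count says nothing beyond their values. Sox17, Sox7 and Foxa2 stayed below 1 FPKM in both libraries.

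**Figure D2:**
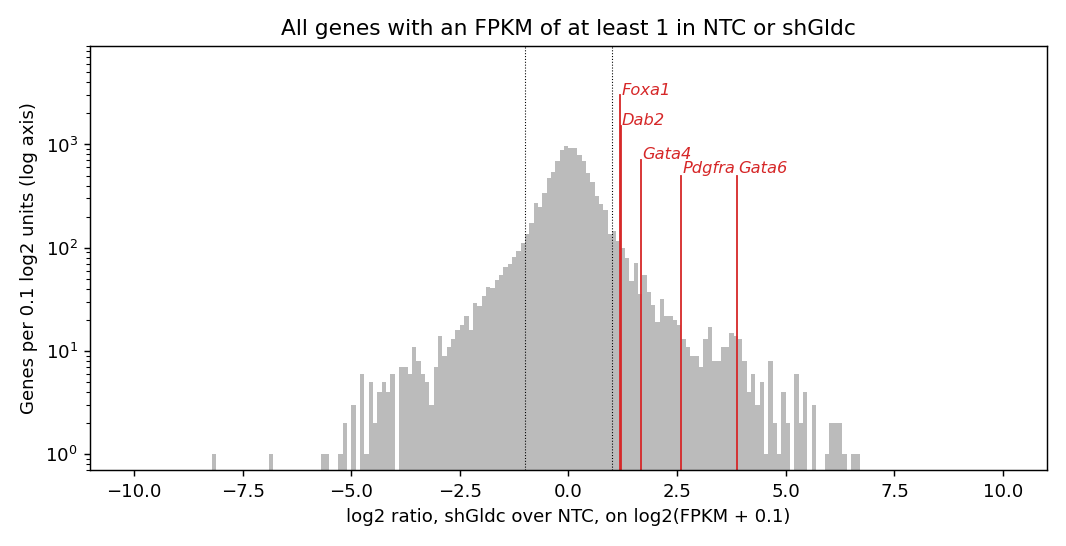
Number of genes (log axis) at each log2 ratio of shGldc over NTC, for the 11969 genes with at least 1 FPKM in either library. Red lines mark the 5 members that passed and dotted lines a 2-fold difference. Gata6 at 3.89 ranks 86 from the top, and Foxa1 and Dab2 lie close to the 2-fold line.

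The GATA factors reached the highest levels of the members in shGldc. Gata6 was at 3.56 FPKM in MEFs, 4.46 in iPSCs, 0.646 in V6.5, 0.462 in NTC and 8.22 in shGldc. The shGldc level was 17.8-fold that of NTC, with a 95% interval of 13.2 to 24.9. This interval and those that follow are exact binomial (Clopper-Pearson) intervals on estimated fragments, here 764 and 43, and cover counting error only. Gata6 ranked 86 of the 11969 genes by its ratio. In mm10 it lies on chromosome 18 from 11052064 to 11085635 on the plus strand, and its exons overlap the antisense gene 1010001N08Rik, whose reads could not be separated if counting ignored strand.

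Gata4 was at 0.826 FPKM in MEFs, 9.99 in iPSCs, 3.52 in V6.5, 2.38 in NTC and 7.84 in shGldc. The 2 high libraries were iPSCs and shGldc and the lowest was MEFs. Gata4 was 3.29-fold higher in shGldc than in NTC, with an interval of 2.84 to 3.83. Against the untreated V6.5 library of the first table it was 2.23-fold higher. The gene lies on chromosome 14 from 63198922 to 63271692 on the minus strand, with no overlapping gene.

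The SOX factors were lower. Sox7 was at 0.0866 FPKM in MEFs, 0.850 in iPSCs, 0.200 in V6.5, 0.142 in NTC and 0.944 in shGldc. Its shGldc level was 6.63-fold that of NTC, with an interval of 3.62 to 12.2 from an estimated 89 and 14 fragments, and 4.71-fold that of untreated V6.5 cells. Sox7 is on chromosome 14 from 63943673 to 63950732 on the plus strand.
Sox17 was listed at 0 in MEFs and was at 2.57 FPKM in iPSCs, 0.571 in V6.5, 0.160 in NTC and 0.656 in shGldc. The ratio of shGldc over NTC was 4.09 with an interval of 2.30 to 7.76, but shGldc and untreated V6.5 cells differed by only 1.15-fold, with an interval of 0.763 to 1.70. NTC was the low library for Sox17 among the pluripotent cells. The gene spans 4490931 to 4497354 of chromosome 1 on the minus strand and its exons overlap Gm37587.

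The FOXA factors were low in the mESC libraries as well. Foxa1 was at 0.132 FPKM in MEFs, 2.29 in iPSCs, 0.985 in V6.5, 0.567 in NTC and 1.42 in shGldc. It was 2.50-fold higher in shGldc than in NTC, with an interval of 1.81 to 3.54, and 1.44-fold higher than in untreated V6.5 cells. It lies on chromosome 12 from 57540628 to 57546916 on the minus strand.
Foxa2 was listed at 0 in MEFs and was at 0.710 FPKM in iPSCs, 0.0856 in V6.5, 0.0291 in NTC and 0.316 in shGldc. The ratio of shGldc over NTC, 10.8, rested on an estimated 19 and 2 fragments and had an interval of 2.31 to 84.7. Foxa2 is on chromosome 2 from 148042877 to 148046969 on the minus strand.

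Dab2 and Pdgfra, which the other tissues of the embryo also use, were highest in MEFs. Pdgfra was at 15.8 FPKM in MEFs, 0.810 in iPSCs, 0.834 in V6.5, 0.143 in NTC and 1.36 in shGldc. It was 9.51-fold higher in shGldc than in NTC, with an interval of 6.52 to 14.8, but 1.63-fold higher than in untreated V6.5 cells. NTC was the low library, 5.82-fold below untreated V6.5 cells. Pdgfra in V6.5 was 5.28% of its MEF level, and the 12 fibroblast markers ranged from 0.559% for Col1a1 to 5.17% for Twist1. The part of fibroblast RNA in the Pdgfra value was not tested. Pdgfra lies on chromosome 5 from 75152292 to 75198215 on the plus strand, where exons overlap Gm42802, Gm42803 and Mir7025.
Dab2 was at 25.9 FPKM in MEFs, 1.16 in iPSCs, 1.02 in V6.5, 0.928 in NTC and 2.26 in shGldc. The iPSC, V6.5 and NTC levels were close together, and shGldc was 2.44-fold above NTC with an interval of 1.98 to 3.03 and 2.21-fold above V6.5. Of the macrophage markers, only Cd68 reached 1 FPKM in NTC or shGldc, at 13.0 and 12.7, and C1qa, C1qb, C1qc, Csf1r, Adgre1 and Lyz2 were at 0 in both. Ptprc was at 0.331 and 0.480 FPKM and Mrc1 at 0.0260 FPKM in NTC and near 0 in shGldc. Of the 12 fibroblast markers, Col3a1, Dcn, Lum, Postn and Prrx1 were at 0 in both. Twist1, Fbn1, Twist2 and Col1a2 were detected and higher in shGldc, with Twist1 at 2.105 and 3.66 FPKM, and Col1a1, Thy1 and Pdgfrb were lower. The summed level of the list was 14.4 FPKM in NTC and 9.50 in shGldc, and the part of such cells in the Dab2 value was not tested. Dab2 is on chromosome 15 from 6299788 to 6440712 on the plus strand, and its exons overlap Gm18888.
Afp was at 0.0389 FPKM in MEFs, about 2 estimated fragments, and was listed at 0 in the other 4 libraries. It lies on chromosome 5 from 90490737 to 90508907 on the plus strand.

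If the depth of NTC and shGldc was lower by that factor of 2, the lower bounds of the 8 intervals still lay between 1.43, for Foxa2, and 11.4, for Gata6. Relative to the untreated V6.5 library, Gata4, Gata6, Sox7, Foxa2 and Dab2 were more than 2-fold higher in shGldc, on the log2 scale by 1.13, 3.48, 1.80, 1.16 and 1.07, as were 7.66% of all genes without a filter. Sox17, Foxa1 and Pdgfra were higher by 0.17, 0.48 and 0.65 on that scale. Between the control libraries, all 8 members other than Afp were lower in NTC than in untreated V6.5 cells. The median log2 ratio of all genes that passed was -0.06. Sox17 was 3.56-fold and Pdgfra 5.82-fold lower in NTC, and by log2(FPKM + 0.1) 10.1% of all genes were lower by 2-fold. Gata4 in NTC was 0.677 of its V6.5 level (interval 0.568 to 0.807) and Foxa1 0.576 (0.396 to 0.828). Gata6, Sox7, Foxa2 and Dab2 were within counting error.

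**Figure D3:**
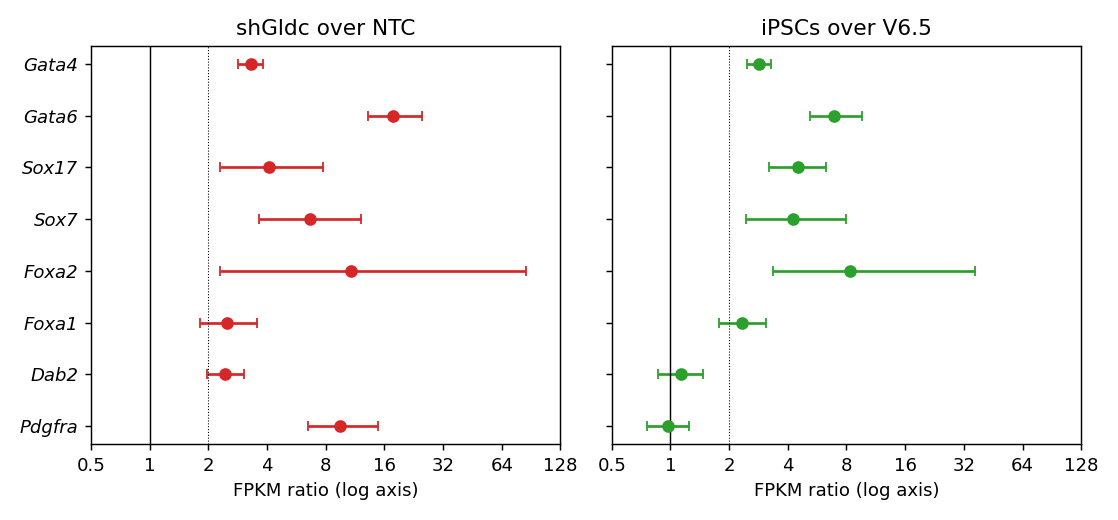
FPKM ratio (log axis) of shGldc over NTC on the left and of iPSCs over untreated V6.5 cells on the right for the 8 members other than Afp, with 95% counting intervals on estimated fragments. All 8 ratios on the left exceed 2. On the right Gata4, Gata6, Sox17, Sox7, Foxa2 and Foxa1 exceed 2 and Dab2 and Pdgfra lie at 1.14 and 0.971.

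The iPSCs were next compared with untreated V6.5 cells, the other pluripotent line of the same table. The 6 transcription factors of the list were all at least 2-fold higher in iPSCs and the adaptor and the receptor were not. Without a filter, 8.25% of all genes were at least 2-fold higher in iPSCs. The ratio was 6.91 for Gata6 (interval 5.17 to 9.56), 8.30 for Foxa2 (3.37 to 36.6), 4.50 for Sox17 (3.22 to 6.31), 4.25 for Sox7 (2.45 to 7.99), 2.84 for Gata4 (2.48 to 3.27) and 2.32 for Foxa1 (1.77 to 3.11). Dab2 was at 1.16 FPKM in iPSCs and 1.02 in V6.5, a ratio of 1.14 with an interval of 0.869 to 1.47, and Pdgfra had a ratio of 0.971 with an interval of 0.760 to 1.25. These 6 factors were also among the members higher in shGldc than in NTC, and 1.92% of all genes were at least 2-fold higher in both comparisons.

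With the filter, 5 members were compared, 4 of them at least 2-fold higher and none lower, with a median log2 ratio of 1.48. Of them, 3 passed through iPSCs alone. Of the 12323 genes that passed, 10.1% were higher and 7.44% lower by this rule in iPSCs. With NTC in place of untreated V6.5 cells, a control chosen after the data were seen and taken from the other table, iPSCs had 4 members at least 2-fold higher and a median of 2.02, beside 16.3% of all genes that passed. Pdgfra, level with V6.5, was then higher in iPSCs by 1.90 on the log2 scale. The log2 ratio of Sox17 went from 1.99 to 3.36 and that of Foxa1 from 1.14 to 1.84.

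In the order of levels, shGldc was highest for Gata6 and Sox7 and iPSCs for Gata4, Sox17, Foxa2 and Foxa1. The shGldc and iPSC levels of Sox7 did not differ beyond counting error, with an interval of 0.792 to 1.56 for their ratio, and neither did shGldc and V6.5 for Sox17. V6.5 and NTC were neighbours within counting error for Gata6, Sox7, Foxa2 and Dab2. iPSCs and V6.5 were so for Dab2 and Pdgfra. NTC and MEFs, the lowest levels of Sox7 and Foxa2, were also within counting error. Most of these neighbours come from separately made tables.

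MEFs differed from the pluripotent cells in opposite directions among the members. Dab2 was 25.3-fold and Pdgfra 18.9-fold higher in MEFs than in untreated V6.5 cells, and Gata6 was 5.51-fold higher. With NTC in place of untreated V6.5 cells, the log2 ratio over MEFs went from -4.09 to -6.03 for Pdgfra, from -4.53 to -4.66 for Dab2 and from -2.30 to -2.70 for Gata6, and those of Sox17 and Foxa1 went from 2.75 to 1.38 and from 2.23 to 1.53. Gata4 was 4.26-fold higher in V6.5 than in MEFs, with an interval of 3.28 to 5.64, and Foxa1 was 7.49-fold higher from an estimated 77 and 10 fragments. Sox7 was 2.31-fold higher in V6.5 with an interval of 0.892 to 6.59, within counting error. Sox17 and Foxa2 were listed at 0 in MEFs. With the filter, 4 members were compared, 1 at least 2-fold higher and 3 lower in V6.5, with a median log2 ratio of -3.19. Gata4 passed through V6.5 alone and Gata6 and Pdgfra through MEFs alone, so these counts follow largely from the filter, and over all 9 members the median was 0.69. Of the 12840 genes that passed, 30.3% were higher and 23.3% lower by 2-fold, around a median of 0.25. Rescaling to the same FPKM sum turned this split of 3892 against 2997 genes into 3271 against 3510. With NTC in place of untreated V6.5 cells, 1 member was again higher and 3 lower, with a median of -3.68. Of 12785 genes that passed there, 3914 were higher and 3286 lower, and the member counts again follow from the filter. MEFs also held macrophage RNA, with C1qa at 52.7 FPKM and Lyz2 at 142 FPKM, and its part in the Dab2 level was not tested.

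Against iPSCs, MEFs had 22.3-fold more Dab2 and 19.5-fold more Pdgfra, whereas Gata6 was nearly level, 4.46 FPKM in iPSCs and 3.56 in MEFs. That Gata6 difference of 0.32 on the log2 scale was the same as the median of all genes, 0.31. Gata4 was 12.1-fold and Foxa1 17.4-fold higher in iPSCs, and Sox17 stood at 2.57 FPKM against 0. Of 6 members that passed, 3 were at least 2-fold higher and 2 lower in iPSCs, with a median of 1.84. The 3 higher members passed through iPSCs alone, so their count follows from the filter. Of all 13032 genes that passed, 31.5% were higher and 21.3% lower by that rule. Rescaling the libraries to the same FPKM sum turned this split of 4104 against 2770 genes into 3201 against 3427, and no member changed direction.

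Genes of basement membrane and parietal endoderm were compared next. The list holds laminin, nidogen and type IV collagen genes and Sparc, a matrix protein gene, and also the secreted protease gene Plat, the surface receptor genes Thbd and Pth1r and the granule proteoglycan gene Srgn. Of 11, 10 passed the filter in shGldc and NTC, 4 were at least 2-fold higher in shGldc and 1 lower, with a median log2 ratio of 0.50. Of all genes that passed, 8.97% were higher and 7.68% lower. Of the 4 higher genes, Srgn and Plat passed through shGldc alone. Srgn was at 0.183 FPKM in NTC and 4.27 in shGldc, and Plat, the tissue plasminogen activator, at 0.128 and 1.90. Untreated V6.5 cells held 0.247 FPKM of Srgn and 1.21 of Plat, so NTC was the low library for Plat. Col4a1 was at 10.2 and 24.9 FPKM and Col4a2 at 6.67 and 14.5. Nid1, which encodes nidogen, was lower, at 18.2 and 6.75 FPKM. Untreated V6.5 cells held 11.3 FPKM of Nid1, and shGldc was below V6.5 by less than 2-fold, -0.73 on the log2 scale. In the counts of lists, higher and lower mean by 2-fold or more, and a gene under 1 FPKM in one library could pass through the other alone, so such counts follow in part from the filter. The laminin chain genes Lama1, Lamb1 and Lamc1 differed by less than 2-fold.
In iPSCs over V6.5, 5 of 11 were at least 2-fold higher, 2 of them through iPSCs alone, and 1 lower, with Srgn at 3.75 and 0.247 FPKM and a median of 0.51. Over MEFs, V6.5 had 1 of 11 higher, Lama1 at 3.88 against 1.17 FPKM, and 9 lower, most of all Plat at 1.21 against 39.9 FPKM, with a median of -3.19. iPSCs over MEFs had 1 higher and 8 lower with a median of -2.68. Of all genes that passed, 10.1% were higher and 7.44% lower in iPSCs over V6.5. Over MEFs the shares were 30.3% and 23.3% in V6.5 and 31.5% and 21.3% in iPSCs. The counts of the lists that follow are to be read beside these shares and the 8.97% and 7.68% of shGldc over NTC.

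Visceral endoderm genes were split. Of 16, 10 passed the filter in shGldc and NTC, with 5 at least 2-fold higher, 2 of them through shGldc alone, 2 lower and a median of 0.42. Cited1, a transcriptional co-regulator, was at 11.0 FPKM in NTC and 48.1 in shGldc. Untreated V6.5 cells held 0.851 FPKM of it, so NTC too was above V6.5. The signal gene Ihh was at 0.0424 and 1.25 FPKM. The transport protein genes Rbp4, at 3.52 and 0.609, and Trf, at 9.57 and 2.46 FPKM, were lower. Ttr and Alb, abundant products of visceral endoderm and liver, were at 0 in both libraries, as Afp was.
All 8 visceral genes that passed were above V6.5 in iPSCs, 3 of them at least 2-fold and 2 of those through iPSCs alone, with a median of 0.63. Against MEFs, V6.5 had 4 of 5 at least 2-fold higher, most of all Apoa2 at 8.68 against 0.0564 FPKM, with a median of 2.74. Trf, at 6.87 against 4.07 FPKM, fell short of 2-fold. iPSCs had 8 of 8 higher, with a median of 3.53. The 4 higher genes in V6.5 and 7 of the 8 in iPSCs were under 1 FPKM in MEFs and passed through the other library alone, so these counts follow largely from the filter. Of all genes that passed, 30.3% were higher in V6.5 and 31.5% in iPSCs.

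Among 13 anterior and definitive endoderm genes, 9 passed in shGldc and NTC, 2 were at least 2-fold higher and none lower, with a median of 0.08. The WNT antagonist gene Dkk1 was listed at 0 in NTC and was at 4.97 FPKM in shGldc, through which alone it passed. Lefty1, a NODAL antagonist gene, was at 3.54 and 34.3 FPKM, but untreated V6.5 cells held 37.8 FPKM of it. Trh was lowest by ratio, at 126 and 73.9 FPKM. Cer1 was at 0 in all 5 libraries, and the definitive endoderm surface gene Cxcr4 was at 1.57 and 1.54 FPKM.
Lefty1 was at 0.888 FPKM in iPSCs, and of 8 genes that passed in iPSCs over V6.5, 1 was at least 2-fold higher and 3 lower, with a median of -0.48. V6.5 had 7 of 7 higher than MEFs, from Cxcr4 at 1.18 against 0.380 FPKM to Trh at 13.2 against 0, with a median of 4.18. iPSCs had 6 of 7 higher with a median of 2.77. Of the 7 genes, 6 passed through V6.5 alone, Lefty1 at 1.16 FPKM in MEFs being the other, and all 6 higher in iPSCs passed through iPSCs alone. These counts too follow largely from the filter, and are to be read beside the shares of all genes, 30.3% and 31.5%.

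**Figure D4:**
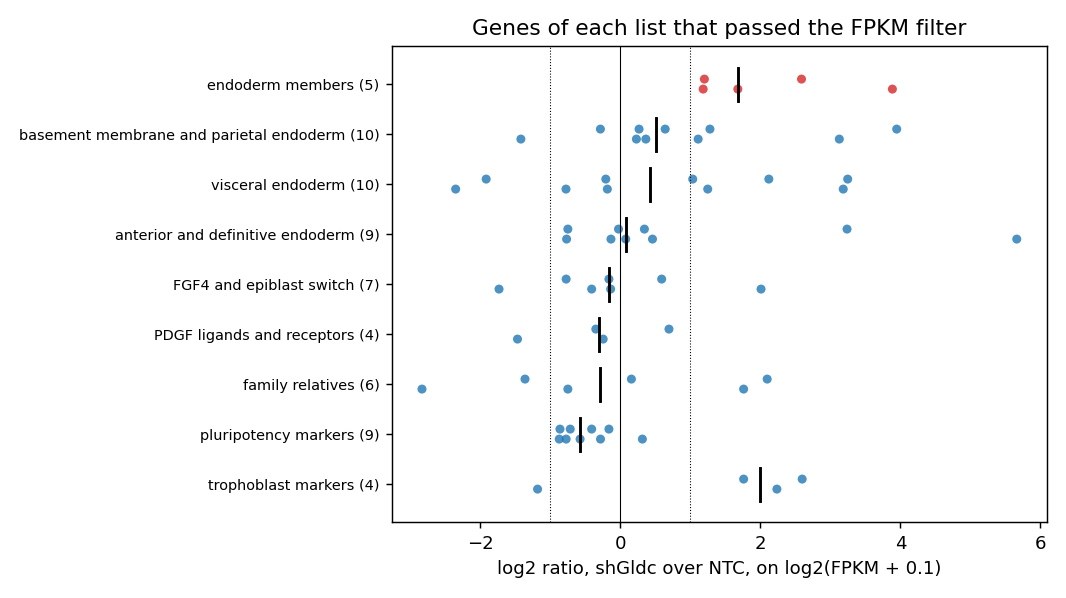
log2 ratio of shGldc over NTC for the genes of 9 lists that passed the filter of 1 FPKM in either library, with the number that passed after each name. Each point is a gene, black bars are medians and dotted lines mark 2-fold. The members lie to the right of the 2-fold line, most of them admitted to the filter by shGldc, whereas the visceral endoderm genes lie on both sides.

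The 7 FGF4 and epiblast genes that oppose or drive primitive endoderm were all detected, with 6 at 1 FPKM or more in NTC, 7 in shGldc and 3 in MEFs. Fgf4, the ligand made by epiblast, was at 59.9 FPKM in NTC and 18.0 in shGldc. Of its receptors, Fgfr2, the one raised in primitive endoderm, was at 0.284 and 1.45 FPKM, and Fgfr1 at 36.0 and 54.3. Grb2, the adaptor of the pathway, was at 80.0 and 72.7 FPKM. The epiblast factors differed less, with Nanog at 249 and 223 FPKM, Pou5f1 at 1215 and 915 and Sox2 at 223 and 130. Of the 7 genes, 1, Fgfr2, was at least 2-fold higher in shGldc, through which alone it passed, and 1 lower, with a median of -0.16.
Against untreated V6.5 cells, shGldc was also lower in Fgf4, since V6.5 held 102 FPKM and iPSCs 81.2. Fgfr2 was at 2.18 FPKM in V6.5, 1.48 in iPSCs and 4.47 in MEFs, so NTC was again the low library. None of the 7 differed by 2-fold between iPSCs and V6.5, with a median of -0.33. V6.5 over MEFs had 4 at least 2-fold higher and 1 lower with a median of 8.05, and iPSCs over MEFs 5 and 2 with a median of 8.40, the pluripotency factors among them. In each, 4 of the higher genes passed through the pluripotent library alone.

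Against NTC, the low library for Pdgfra, no ligand of PDGFRA was 2-fold higher in shGldc. Pdgfa, its main ligand in the blastocyst, was at 45.5 FPKM in NTC and 38.4 in shGldc. Pdgfc was at 1.03 and 1.72, Pdgfb at 1.19 and 0.367 and the receptor gene Pdgfrb at 2.88 and 2.24 FPKM, and Pdgfd was at 0 in both. Of the 4 that passed, 1 was 2-fold lower, with a median of -0.30. Against untreated V6.5 cells, shGldc was higher in Pdgfc by 1.45 on the log2 scale, from 0.565 FPKM in V6.5, and in Pdgfra by 0.65. V6.5 over MEFs had 1 of 5 higher, Pdgfb at 1.97 against 0.855 FPKM, and 3 lower, with Pdgfrb at 2.42 against 104 FPKM and a median of -4.67. iPSCs over MEFs also had 1 higher and 3 lower with a median of -4.05, and iPSCs over V6.5 had none of 3 past 2-fold with a median of -0.16.

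Close relatives of the members did not follow one direction. Gata2 was at 1.67 FPKM in NTC and 7.49 in shGldc, and Gata3 at 0.283 and 1.20. Gata1 was at 1.23 and 1.39, and Gata5 at 0.0523 and 0, under 1 FPKM in both. Sox18, of the same SOX subgroup as Sox17 and Sox7, was lower in shGldc, at 3.44 and 0.397 FPKM. Foxa3 was at 1.03 and 0.573, and Dab1, a relative of Dab2 in neurons, at 1.91 and 0.683 FPKM. Of the 6 that passed, 2 were at least 2-fold higher, Gata3 through shGldc alone, and 2 lower, both through NTC alone, with a median of -0.30.
In iPSCs over V6.5, 3 of 6 relatives were at least 2-fold higher and 1 lower, Gata3 at 2.51 and 0.502 FPKM and Sox18 at 0.891 and 2.56, with a median of 0.68. V6.5 over MEFs had 3 of 5 higher and 1 lower, from Gata1 at 3.36 against 0 to Gata3 at 0.502 against 2.00 FPKM, with a median of 3.71. iPSCs over MEFs had 4 of 5 higher and none lower with a median of 3.74. Through the first library alone passed 2 of the 3 higher in iPSCs over V6.5, all 3 in V6.5 over MEFs and 3 of the 4 in iPSCs over MEFs.

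The genes most like a member in pattern were sought by Pearson's r of log2(FPKM + 0.1) over the 5 libraries, a description with no test, for the 4 members that reached 5 FPKM. All points of one library share its depth and preparation. For Gata6 the nearest of 3880 genes was Srgn with an r of 0.9887, followed by the gap junction gene Gjb2 at 0.9504 and Arhgef6 at 0.9485, and only 2 genes exceeded 0.95. Srgn was at 2.09 FPKM in MEFs, 3.75 in iPSCs, 0.247 in V6.5, 0.183 in NTC and 4.27 in shGldc. For Pdgfra the nearest of 1266 were Plat at 0.9992, Parva at 0.9974 and Fbxo4 at 0.9965, and 62 reached 0.95. Pdgfra and Plat were both highest in MEFs, at 15.8 and 39.9 FPKM. Plat and Srgn are both on the parietal endoderm list. For Gata4 the nearest of 4720 were Prr23a2 at 0.9958, Nudt11 at 0.9928 and Sstr5 at 0.9887, and 58 exceeded 0.95. For Dab2, with 302 of 2784 genes over 0.95, they were Lgr5 at 0.9990, Hic1 at 0.9958 and Slc24a3 at 0.9947.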

How the data were processed

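The authors extracted RNA with TRIzol, prepared libraries with the NEBNext Ultra RNA kit, sequenced them on the Illumina HiSeq platform, mapped reads to mm10 with TopHat2 (2.1.0), assembled transcripts with StringTie (1.3.4d) and computed gene levels with Ballgown; the submitters' processing notes also name SAMtools (1.7). The deposited values are FPKM in 2 separately made tables of 24421 genes. The annotation, strand setting and filters are not given in the sources used here. There was 1 library per group, so no test was run.

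Log2 ratios were differences of log2(FPKM + 0.1), which understate changes of low genes and, against a library at 0, depend on the pseudocount. Genes with at least 1 FPKM in either library were kept and a 2-fold difference was counted. Fragments were estimated from FPKM, transcript length (GENCODE M21) and a step found in 5723 single-transcript genes. These are not read counts, so no count model was used. Ratio and depth code was tested on simulated data (Python 3.11.15, pandas 2.3.3, scipy 1.17.1). Exact binomial intervals cover counting error only. At most 0.12% of the 50-nt stretches of any member are shared with transcripts of other genes.

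The 15 gene lists, the list of members among them, were chosen with earlier results of these data known. By rule, the text names all members, all FGF4 and epiblast genes and family relatives, each list's extremes in shGldc over NTC and V6.5 over MEFs, list genes that differed 4-fold in shGldc over NTC, the targeted gene, and the 3 genes most like each member that reached 5 FPKM. Other list genes were named after their values were seen. A list gene that the rule would name is not reported here. Alternatives were pseudocounts of 1 and 0.01, no filter, a filter of 5 FPKM, rescaling to the same FPKM sum, centring on the median, and another mESC library as the control.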

Additional observations from a re-analysis of the deposited data

How the results depend on the processing

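With 1 library per group, no library could be left out, and no paired analysis was possible because the groups share no replicate numbers in the labels. A setting was taken to move a ratio or a median when the shift exceeded 0.594 log2 units, the spread of all genes between NTC and untreated V6.5 cells, and to move a count beyond 1.5 times. For shGldc over NTC, the members at least 2-fold higher numbered 5, and 3 with a pseudocount of 1, 8 without a filter, 2 with a filter of 5 FPKM and 3 with untreated V6.5 as the control. The median of 1.68 became 1.05 with a pseudocount of 1, 2.78 with the filter of 5 FPKM and 1.07 with the V6.5 control. For V6.5 over MEFs, 1 member was higher, and 3 were without a filter and 0 with the filter of 5 FPKM. The median of -3.19 became -2.33 with a pseudocount of 1 and -4.31 with the filter of 5 FPKM, and it turned to 0.69 without a filter, where all 9 members entered. For iPSCs over MEFs, 3 members were higher, 5 without a filter and 1 with the filter of 5 FPKM. The median of 1.84 became 0.90 with a pseudocount of 1 and turned to -4.13 with the filter of 5 FPKM, where only Gata4, Dab2 and Pdgfra entered. For iPSCs over V6.5, 4 were higher and 1 with the filter of 5 FPKM, where only Gata4 entered. Rescaling and centring moved none of these. Of 179 single ratios under the alternatives, 137 stayed within the spread, 42 moved and 0 turned. Those that moved with the pseudocount, 23 at 1 and 10 at 0.01 respectively became smaller and larger in size. Depth limits Foxa2, Sox7 and Sox17, which rest on at most 89 estimated fragments in either NTC or shGldc, and a value listed at 0 is not evidence of absence.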

Other observations

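Markers of other lineages were read as lists too, since several members or their relatives also act outside endoderm. Of 7 trophoblast markers, 4 passed the filter in shGldc and NTC, 3 were at least 2-fold higher in shGldc and 1 lower, with a median log2 ratio of 2.00. Of the 3 higher, Gata3, at 0.283 FPKM in NTC and 1.20 in shGldc, and Krt7 passed through shGldc alone, and 8.97% of all genes that passed were higher. Cdx2, a trophectoderm and hindgut factor, was at 5.41 FPKM in NTC and 33.3 in shGldc, the keratin gene Krt7 at 0.574 and 3.08, and Ascl2 at 7.44 and 3.22. Untreated V6.5 cells held 4.26 FPKM of Krt7, above shGldc, and 0.274 FPKM of Cdx2. Of Ascl2 they held 1.53 FPKM, so shGldc was above V6.5 for this gene. Tpbpa was at 0 in all libraries and Elf5 was under 0.1 FPKM. In iPSCs over V6.5, 5 of 5 were at least 2-fold higher, 2 of them through iPSCs alone, with a median of 2.14, beside 10.1% of all genes. Against MEFs, V6.5 cells had 2 of 4 higher and 1 lower, with Hand1 at 3.01 against 0.0965 FPKM, Gata3 at 0.502 against 2.00 and a median of 1.65, and iPSCs over MEFs 4 of 5 higher with a median of 4.70. Both genes higher in V6.5 and 3 of the 4 in iPSCs were under 1 FPKM in MEFs. The other lists below also hold genes that passed through one library alone, so their counts, too, follow in part from the filter. Of all genes that passed, 8.97% were higher and 7.68% lower in shGldc over NTC, and 10.1% and 7.44% in iPSCs over V6.5. Over MEFs the shares were 30.3% and 23.3% in V6.5 and 31.5% and 21.3% in iPSCs.

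Of 8 cardiac mesoderm markers, a tissue that also uses Gata4 and Gata6, 2 passed and both were at least 2-fold lower in shGldc, with a median of -2.38. Bmp4 was at 34.4 FPKM in NTC and 3.31 in shGldc and Myh6 at 2.05 and 0.697. Untreated V6.5 cells held 10.7 FPKM of Bmp4 and 1.41 of Myh6, so NTC was the high mESC library for both. Relative to V6.5, shGldc was lower by -1.66 for Bmp4 and by -0.92, less than 2-fold, for Myh6 on the log2 scale. MEFs also held 14.7 FPKM of Bmp4. Among the markers under 1 FPKM in both libraries, Tnnt2 and Nkx2-5 were higher in shGldc, and Hand2, Tbx20 and Mesp1 were lower. In V6.5 over MEFs 2 of 6 were higher and 3 lower, from Nkx2-5 at 1.46 against 0.0267 FPKM to Tnnt2 at 0 against 7.10, with a median of -1.72. iPSCs over MEFs had 2 and 3 with a median of -1.22, and iPSCs over V6.5 1 of 3 higher with a median of 0.39. Of 8 endothelial markers, cells that use Sox17, Sox7 and Sox18, 3 passed in shGldc and NTC, 1 higher and 1 lower by 2-fold with a median of 0.40. Tie1 was at 0.188 and 3.09 FPKM, Sox18 at 3.44 and 0.397, and Cdh5 and Emcn were at 0 in both. Over MEFs, 2 of 5 were higher in V6.5 and 3 lower, from Pecam1 at 14.7 against 0 to Emcn at 0 against 9.96 FPKM, with a median of -2.49. iPSCs over MEFs had 2 and 3 with a median of -2.29, and iPSCs over V6.5 2 and 1 of 3 with a median of 1.10.

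Of 6 node, notochord and floor plate markers, tissues that use Foxa2, 2 passed in shGldc and NTC and none differed by 2-fold on log2(FPKM + 0.1), with T at 4.33 and 5.08 FPKM and a median of -0.36. Foxj1 was near that limit, at 1.14 and 0.547 FPKM. Untreated V6.5 cells held 0.425 FPKM of T, below NTC and shGldc. V6.5 over MEFs had 1 of 2 higher with a median of 1.08, Foxj1 at 1.40 against 0.147 and Chrd at 1.38 against 1.92 FPKM. iPSCs over MEFs had 1 of 2 higher with a median of 1.53, and iPSCs over V6.5 0 of 2 with a median of 0.46. Of 6 neural markers, 3 passed in shGldc and NTC and none differed by 2-fold, with Tubb3 at 32.5 and 36.5 FPKM, Sox1 at 1.43 and 1.15 and a median of -0.03. In iPSCs over V6.5, 4 of 4 were at least 2-fold lower with a median of -1.88, beside 7.44% of all genes that passed. V6.5 was the high library here, with Sox1 at 7.62 FPKM against 1.66 in iPSCs. In V6.5 over MEFs, the list had 3 of 4 higher and 1 lower, from Sox1 at 7.62 against 0 to Nes at 6.17 against 24.9 FPKM, with a median of 2.93, and iPSCs over MEFs 1 and 1 of 3 with a median of 0.98.

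All 9 pluripotency markers passed in shGldc and NTC and none differed by 2-fold, from Utf1 at 572 and 312 FPKM to Dppa5a at 1440 and 1792, with a median of -0.57. V6.5 over MEFs had 8 of 9 at least 2-fold higher, most of all Pou5f1 at 1055 against 0.309 FPKM, with a median of 9.97. Klf4, at 42.2 against 22.2 FPKM, was the other. iPSCs over MEFs had 9 of 9 with a median of 9.69, and iPSCs over V6.5 1 of 9, Klf4, with a median of -0.25. Of 12 fibroblast markers, 5 passed in shGldc and NTC and 2 were at least 2-fold lower in shGldc, Col1a1 at 1.24 and 0.125 FPKM and Thy1 at 6.95 and 1.11, with Twist1 at 2.105 and 3.66 and a median of -0.35. All 12 were lower in V6.5 and in iPSCs than in MEFs, with medians of -5.79 and -8.17, where V6.5 held Col1a1 at 20.5 against 3672 FPKM and Twist1 at 2.77 against 53.5. iPSCs over V6.5 had 1 of 10 higher and 6 lower with a median of -3.26. Of 9 macrophage markers, 1 passed in shGldc and NTC, with a log2 ratio of -0.04. All 8 that passed were lower in V6.5 than in MEFs, from Cd68 at 9.04 against 18.7 to C1qc at 0 against 39.8 FPKM, with a median of -6.35. iPSCs over MEFs had 7 of 8 lower with a median of -6.71, and iPSCs over V6.5 1 higher and 1 lower of 2 with a median of -1.03.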
